A study of Mus musculus with 8 samples.

Results

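Mitochondrial ribosomal protein genes were examined in the brains of mice with a homozygous mutation of Pus1 and of wild-type mice. Members were all non-control probes whose gene symbol is Mrpl or Mrps followed by a digit. This gave 100 of 55681 different probes, for 78 genes, of which 49 are named for the large subunit (Mrpl) and 29 for the small subunit (Mrps). In 77 genes (99 probes) the signal was well above background in all 8 mice, and these were tested. The remaining gene, Mrpl21, has 1 probe, which was above background in 0 of 8 samples.

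Mitochondria carry ribosomes of their own, which translate the few mRNAs of the mitochondrial genome into core subunits of the respiratory chain and ATP synthase. Their rRNAs are made in the mitochondrion, while all of their proteins are encoded in the nucleus, made in the cytosol and imported. The large subunit forms peptide bonds, the small subunit reads the mRNA, and many of the proteins have no bacterial counterpart. Pus1 encodes a pseudouridine synthase that modifies tRNAs of the cytosol and of mitochondria, and mutations of the human gene cause myopathy with lactic acidosis and sideroblastic anaemia.

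Total RNA came from frozen brain of mice aged 14 to 16 weeks on a C57BL/6J background backcrossed for 5 generations, with 4 mice homozygous for mutant Pus1 and 4 wild type. The labels do not say what the mutation is, and wild-type mice carried no other allele that the labels give. On each 2-colour array a mutant was hybridised against the wild-type mouse that shares its number and sex, and these are called pair 1 to pair 4. The first 2 pairs are females and the last 2 are males, and the mutant was labelled with Cy5 in pairs 1 and 3 and with Cy3 in pairs 2 and 4. Values are the log2 ratio of mutant over wild type within a pair, or the log2 normalised signal of a mouse, and a gene with several tested probes is shown by its brightest. Since whole tissue was used, fewer cells of a type and less RNA per cell cannot be told apart.

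The labels were checked against Pus1 itself, whose log2 ratio was -2.59 ± 0.38 (SD, n = 4 pairs; limma adjusted p = 0.0364). The stress-response gene Trib3 was higher by 2.01 ± 0.53 (SD, n = 4 pairs; limma adjusted p = 0.0364). No gene, these included, passed the adjusted p with the scanner software's log ratio, a normexp offset of 16, the authors' deposited table, a sex term, separate channels with no replicate block, or without pair 1 or pair 3. All 5 neuronal markers, all 4 astrocyte markers and all 5 oligodendrocyte markers were above background, and the liver markers Alb and Apoa1 were above background in 0 samples. Ttr, listed for both liver and choroid plexus, was above background in 8. Of 3 muscle markers Ckm was above background in 0 samples, Myh4 in 5 and Acta1 in 8. Pair 2 stood apart from the other pairs: over all 15288 tested genes the SD of its ratios was 0.735, against 0.30 to 0.39 in the other 3.

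No mitoribosomal gene passed the test for a difference between the genotypes. In limma with Benjamini-Hochberg adjustment over 33307 probes, 0 of 99 member probes passed an adjusted p of 0.05, where 3 of all tested probes, or 0.00901%, did. At an unadjusted p under 0.05, 0 of 77 member genes were called, against 6.16% of all tested genes. Without pair 2, 3 members (Mrpl34, Mrpl37 and Mrpl50) were at an unadjusted p under 0.05, or 3.90%, against 9.62% of all genes in that fit, and 0 passed the adjusted p, against 0.0720%. In the fit on all pairs the lowest unadjusted p was 0.0551 and the adjusted p-values ran from 0.811 to 0.998. Mean ratios ran from 0.865-fold to 1.22-fold, with 36 genes above 0 and 41 below.

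The 95% interval of every one of the 77 lay within 1.5-fold in either direction (0.58 on the log2 scale), which 11731 of 15288 genes, or 76.7%, also met. All 34 complex I subunits and 98.7% of 78 cytosolic ribosomal proteins met it too, so this was not particular to the members. Without a dye term in the fit, 75 of the 77 intervals stayed within that bound, as did 10581 of all 15288. The median distance from a member's mean to the end of its interval was 0.278, or 1.21-fold. The interval of Mrps31 came closest to the bound, with an upper end of 1.497-fold. The intervals may be too narrow, since the fit made too many false calls on simulated data with variances like those observed.

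**Figure D1:**
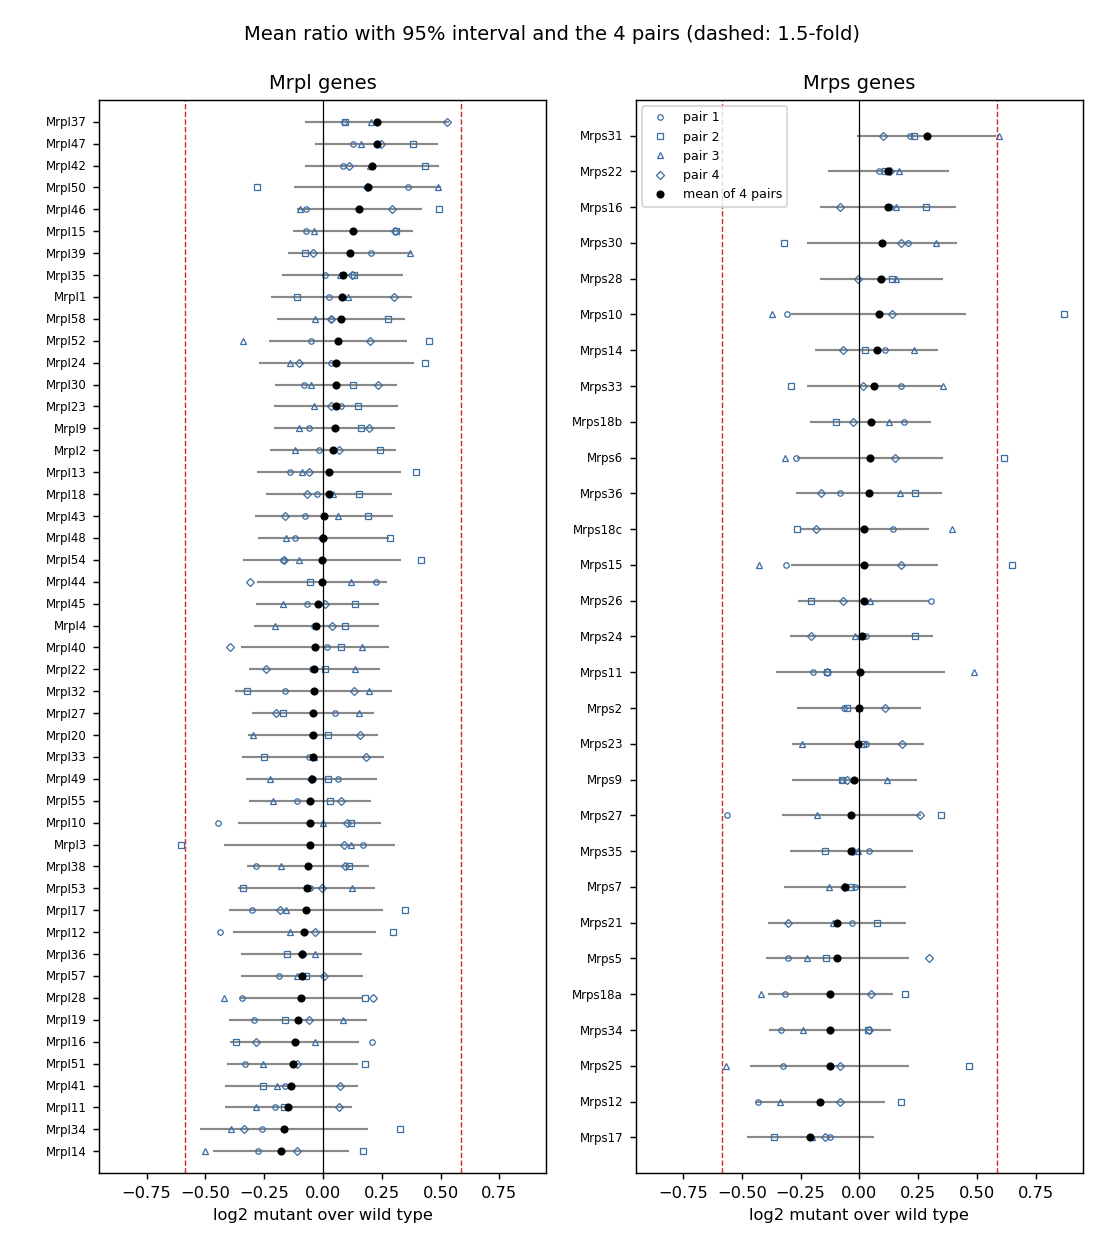
Log2 mutant over wild type of the 77 tested genes, Mrpl left and Mrps right, ordered by their mean. Black points are means of 4 pairs, grey lines their 95% limma intervals, open symbols the single pairs, and dashed lines mark 1.5-fold. Each interval lies within the dashed lines.

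In all 4 pairs alike the ratio was above 0, or below 0, for 9 of 77 members, or 11.7%, and in 11.7% of all tested genes. Of these, 6 were higher in every mutant (background 6.25%) and 3 were lower (background 5.44%). The levels of the mutant and wild-type mice did not overlap in 2 members, Mrps31 and Mrpl47, or 2.60% (background 1.14%).

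Among the small-subunit genes Mrps31, a component without a bacterial counterpart, had the highest mean ratio. Its log2 signal was 11.95, 11.87, 12.12 and 11.84 in the mutants of pairs 1 to 4 and 11.74, 11.64, 11.52 and 11.73 in their wild-type partners. Every mutant lay above every wild-type mouse, with the widest gap in pair 3. The ratios were 0.22, 0.23, 0.60 and 0.10, with a mean of 0.29 ± 0.21 (SD, n = 4 pairs; interval -0.01 to 0.58; limma adjusted p = 0.811), so Mrps31 did not pass.

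Mrps22, a mitochondria-specific small-subunit protein whose human gene is mutated in infantile mitochondrial disease, had the smallest spread of all members. Its ratios were 0.08, 0.11, 0.17 and 0.13 and its mean was 0.12 ± 0.04 (SD, n = 4 pairs; limma adjusted p = 0.877). Its wild-type signals were 11.34, 11.42, 11.21 and 11.32 and its mutant signals 11.43, 11.53, 11.38 and 11.45, so the groups overlapped although each mutant exceeded its partner. Mrps16, whose loss in humans impairs mitochondrial translation, was higher in pairs 1 to 3 and lower in pair 4, with a mean of 0.12 ± 0.15 (SD, n = 4 pairs).

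Mrps17, a small-subunit protein with a bacterial counterpart, had the lowest mean of all members. Its log2 signal was 12.10, 12.50, 12.19 and 12.44 in the wild-type mice and 11.97, 12.14, 11.98 and 12.30 in the mutants. Each mutant lay below its partner, while the groups overlapped. The ratios were -0.13, -0.36, -0.20 and -0.15, with a mean of -0.21 ± 0.11 (SD, n = 4 pairs; limma adjusted p = 0.825). The second Mrps17 probe had a mean of -0.09, with ratios of -0.05, -0.30, 0.02 and -0.02, so it was not lower in pair 3. Mrps17 lies on chromosome 5, as does Pus1, and the other members on that chromosome were Mrpl1, Mrpl33 and Mrps18c, whose means were 0.08, -0.04 and 0.02.

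The other small-subunit gene that was lower in every pair by its brightest probe, Mrps7, has a bacterial counterpart that binds rRNA early in assembly. Its ratios were -0.02, -0.04, -0.13 and -0.07. The second Mrps7 probe was at -0.12, 0.10, -0.03 and -0.07, so it was higher in pair 2. Mrps12, the counterpart of a bacterial protein of the decoding centre, was lower in pairs 1, 3 and 4 and higher in pair 2, with a mean of -0.17 ± 0.27 (SD, n = 4 pairs). Mrps34, which is specific to mitochondria, had a mean of -0.12 ± 0.19 (SD, n = 4 pairs).

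Among the large-subunit genes Mrpl47 and Mrpl37 had the highest means. The log2 signal of Mrpl47 was 11.69, 11.71, 11.60 and 11.57 in the wild-type mice and 11.82, 12.09, 11.77 and 11.82 in the mutants. Every mutant lay above every wild-type mouse, and the mutant of pair 2 stood highest. The mean ratio was 0.23 ± 0.11 (SD, n = 4 pairs; limma adjusted p = 0.811), and the second Mrpl47 probe had a mean of 0.29.

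Mrpl37 and Mrpl42, both specific to mitochondria, were also higher in all 4 pairs, with means of 0.23 ± 0.21 and 0.21 ± 0.16 (SD, n = 4 pairs). The ratios of Mrpl37 were 0.09, 0.09, 0.21 and 0.53, and the wild-type and mutant signals overlapped. Mrpl35, with a bacterial counterpart, was higher in every pair by 0.01, 0.13, 0.07 and 0.12. Mrpl46 and Mrpl50, with means of 0.15 and 0.19, changed sign between pairs.

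Mrpl36, which has a bacterial counterpart, was the large-subunit gene lower in all 4 pairs, at -0.09, -0.15, -0.03 and -0.09. Its signals were low or high together in the mice of a pair, from 12.30 and 12.21 in pair 1 to 12.78 and 12.63 in pair 2 (wild type, then mutant). Mrpl14, which in bacteria lies at the contact between the subunits, had a mean of -0.18 ± 0.28 (SD, n = 4 pairs). Mrpl11, part of the base of the stalk that binds translation factors, had a mean of -0.15 ± 0.15 (SD, n = 4 pairs), and Mrpl41 one of -0.13 ± 0.14 (SD, n = 4 pairs).

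Other genes with well-known roles differed in sign between pairs. Mrpl12, the stalk protein that also binds the mitochondrial RNA polymerase, had ratios of -0.44, 0.30, -0.14 and -0.03. Mrpl44, whose human gene is mutated in infantile cardiomyopathy, had ratios of 0.23, -0.05, 0.12 and -0.31. Mrpl3, which has also been linked to human cardiomyopathy, was higher by 0.17, 0.12 and 0.09 in pairs 1, 3 and 4 and at -0.60 in pair 2.

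**Figure D2:**
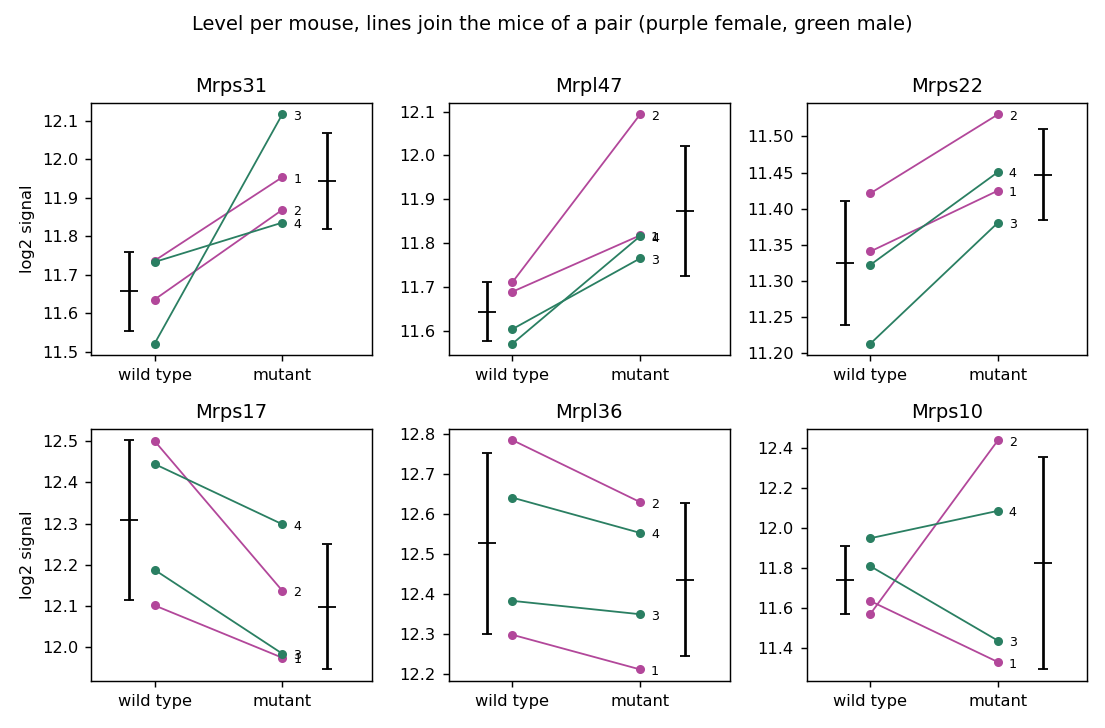
Log2 normalised signal of 6 genes in each mouse, with lines joining the mice of a pair, pair numbers beside the mutants, and bars for the mean and SD of 4 mice. Mrps31 and Mrpl47 do not overlap between genotypes, Mrps22, Mrps17 and Mrpl36 shift the same way in each pair, and Mrps10 moves in opposite directions.

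For 22 genes more than 1 probe was tested, and in 20 of them the probes' mean ratios lay within 0.2 of each other. The exceptions were Mrps2, at -0.001 and 0.30, and Mrps25, at -0.13 and 0.14. The next widest were Mrpl15, at -0.06 and 0.13, and Mrps17. RefSeq lists 8 pseudogenes named for members (of Mrpl23, Mrpl27, Mrpl48, Mrpl51 and Mrps33, and 3 of Mrps36), and probes that also bind their transcripts could not be told apart here.

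Large and small subunits were compared by pair. The median ratio of the 48 Mrpl genes was -0.06, 0.12, -0.05 and 0.03 in pairs 1 to 4, and that of the 29 Mrps genes was -0.03, 0.04, -0.005 and -0.03. The large subunit was thus below the small one by 0.03 and 0.04 in pairs 1 and 3 and above it by 0.09 and 0.06 in pairs 2 and 4, with no direction shared by the 4 pairs. The mean of the difference was 0.02 ± 0.06 (SD, n = 4 pairs), within the spread between pairs, while the medians of the mean ratios differed by -0.04.

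Symbols do not always give the place of the protein. Mrps18a and Mrps30 sit in the large subunit, and Mrps36 is now known as a subunit of the oxoglutarate dehydrogenase complex. Their means were -0.12 ± 0.29, 0.10 ± 0.29 and 0.04 ± 0.19 (SD, n = 4 pairs). Placing them by structure gave 50 large and 26 small members. The medians of the mean ratios then differed by -0.04, and the mean of the difference by pair was 0.02 ± 0.07 (SD, n = 4 pairs). The 45 members with a bacterial counterpart had a median of -0.03 and the 31 specific to mitochondria one of -0.005.

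**Figure D3:**
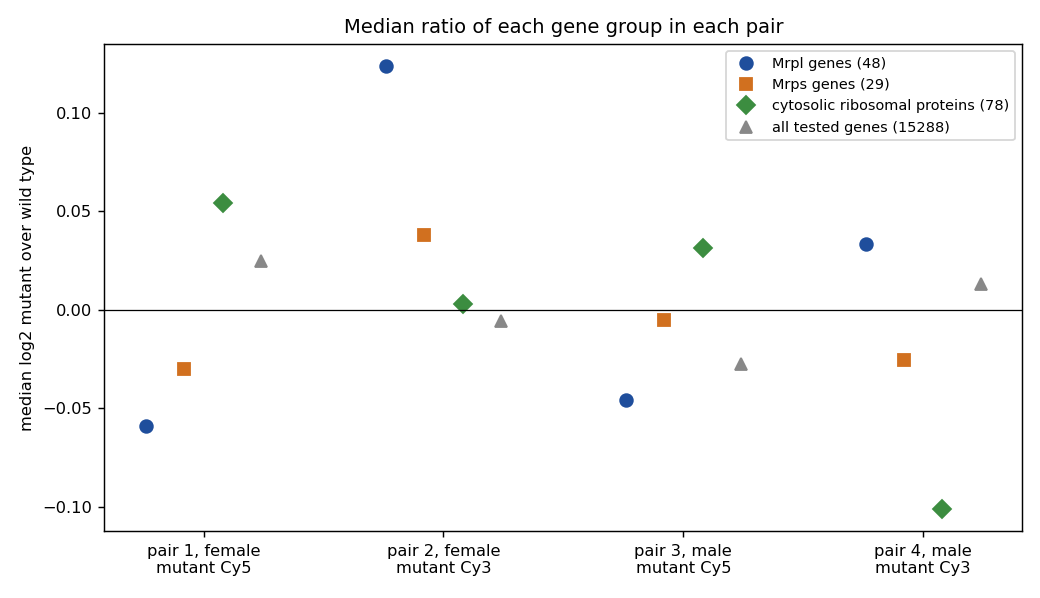
Median log2 mutant over wild type of the Mrpl genes, the Mrps genes, the cytosolic ribosomal protein genes and all tested genes in each pair, with sex and mutant dye below. The Mrpl medians are below 0 in pairs 1 and 3 and above 0 in pairs 2 and 4, and no group keeps 1 sign across the pairs.

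As a whole the 77 genes had median ratios of -0.06, 0.11, -0.04 and 0.01 in pairs 1 to 4, with an SD of 0.07 over pairs. The median of their mean ratios was -0.005, beside 0.007 over all tested genes. In pair 2 50 of the 77 were higher in the mutant, or 64.9%, against 49.5% of all genes. In pair 1 29 were higher, or 37.7%, against 54.1% of all genes.

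The spread between pairs was described by the SD of the ratio. For the members the median SD over the 4 pairs was 0.194, against 0.298 over all tested genes and likewise over the 13974 genes above background in all 8 samples. Without pair 2 these medians were 0.15 and 0.217. Over the 4 pairs the median SD was 0.173 for the 78 cytosolic ribosomal proteins and 0.205 for 34 complex I subunits. A low spread was thus not particular to the members. Within pair 2 the ratios of members had an SD of 0.270, against 0.735 for all genes. A ratio beyond 1.5-fold in any pair was seen in 5 members (Mrpl3, Mrps6, Mrps10, Mrps15 and Mrps31) and in 5556 of all 15288 genes. Of the cytosolic ribosomal proteins 6 had such a ratio, and of the complex I subunits 1. Without pair 2 such a ratio was seen in Mrps31 alone among the members, or 1.30%, and in 17.7% of all genes.

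The signals of single mice showed which animals were high. In pair 2, 62 of 77 members in the mutant and 57 of 77 in the wild-type mouse lay above their own mean over the 8 mice. Of all tested genes 57.0% and 58.2% did so in those mice. In pair 1 the members above their mean numbered 21 (27.3%) and 29 (37.7%), against 38.0% and 32.5% of all genes. In pair 3 they were 24 (31.2%) and 30 (39.0%), against 43.7% and 43.2%, and in pair 4 they were 42 (54.5%) and 36 (46.8%), against 58.9% and 58.5%. Members of pairs 1 to 3 lay to the side on which all genes lay in both mice, and the pair, which is also the array, cannot be told apart from the mice in it.

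**Figure D4:**
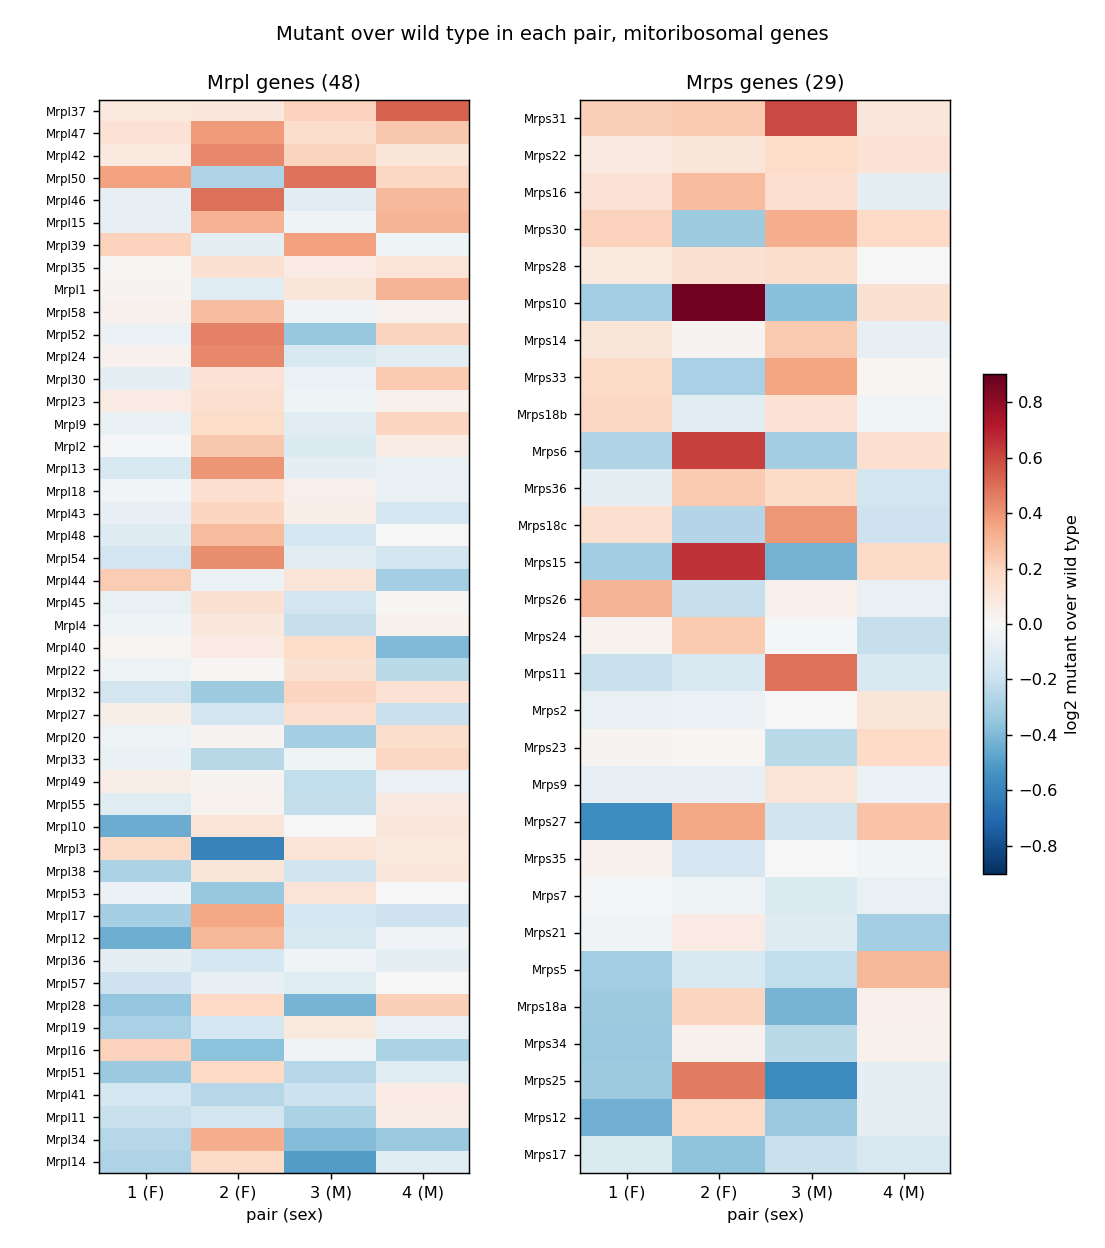
Log2 mutant over wild type of each tested gene (rows, ordered by mean) in each pair (columns, F female, M male), red higher and blue lower in the mutant. Most rows change colour between pairs, and Mrps6, Mrps10 and Mrps15 are dark red in pair 2 and blue in pairs 1 and 3.

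The members that varied most were small-subunit genes. Mrps10, with a bacterial counterpart that also serves in transcription control, had ratios of -0.31, 0.87, -0.37 and 0.14. Its mutant signals were 11.33, 12.44, 11.43 and 12.08 and its wild-type signals 11.63, 11.57, 11.81 and 11.95. The mutant of pair 2 was the highest of the 8 mice and the mutant of pair 1 the lowest. Mrps15 (-0.31, 0.65, -0.43 and 0.18) and Mrps6 (-0.27, 0.62, -0.31 and 0.15), both with bacterial counterparts, followed the same order, and Mrps25, specific to mitochondria, had ratios of -0.32, 0.46, -0.57 and -0.08.

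In Mrps10, Mrps15 and Mrps6, but not in Mrps25, pairs 1 and 3 had the opposite sign to pairs 2 and 4. This is also the division by dye orientation. Signs opposed in this way in 24 of 77 members, or 31.2%, against 26.3% of all genes. The dye term of the fit had an unadjusted p under 0.05 in 5 members, or 6.49%, against 15.0% of all genes, and none passed the adjusted p (0 of all genes, 0%; lowest member adjusted p = 0.362 in limma). For Mrps15 its size was -0.39, for Mrps10 -0.42 and for Mrps27, a small-subunit protein specific to mitochondria, -0.34.

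Cell type markers also differed between pairs, though not all of them by the division of dye orientation. The 4 astrocyte markers had median ratios of 0.05, 1.10, -0.18 and 0.41 in pairs 1 to 4 and the 5 oligodendrocyte markers -0.44, 1.60, -0.91 and -0.18. The 4 markers of cortical excitatory neurons were at 0.25, -2.21, -0.01 and 0.20, and the 4 striatal markers at 1.24, -0.22, 0.35 and -1.15. Summed oligodendrocyte signal ran from 17.3 to 19.3 (log2) in mutants and from 17.7 to 18.3 in wild-type mice, and summed cortical signal from 13.8 to 15.2 and from 13.6 to 15.9. The 4 cerebellar markers were at 0.55, 1.33, 0.71 and 2.31, with sums of 14.0 to 18.0 in mutants and 12.4 to 17.4 in wild-type mice. Each of these 4 was higher in the mutant of every pair. At an unadjusted p under 0.05 in limma 3 of them were called, against 6.16% of all tested genes, and 0 passed the adjusted p. The part of these cell types in the member ratios was not tested.

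The genotype ratio was also compared between sexes, with 2 pairs of each. No member passed for the male minus female difference (0 of 77 at an unadjusted p under 0.05, where 3.27% of all genes were, and 0 after adjustment, 0% of all genes; lowest member adjusted p = 0.993 in limma). Mrpl32, a large-subunit protein processed by a mitochondrial protease before assembly, was at -0.16 and -0.32 in females and 0.19 and 0.13 in males. Mrpl34, with a bacterial counterpart, was at -0.26 and 0.33 in females and -0.39 and -0.34 in males.

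Partners of the mitoribosome likewise gave no gene past the adjusted p, which 0.0131% of all tested genes passed. Of 5 proteins of the ribosome with other names, Aurkaip1 and Chchd1 had means of 0.18 and 0.13, and Dap3, a small-subunit GTP-binding protein, 0.01. Gadd45gip1 had the lowest mean of the 5, at -0.001. Of 28 assembly genes 1 was at an unadjusted p under 0.05, against 6.16% of all tested genes. It was Ngrn, needed for the large-subunit rRNA, at 0.30 (ratios 0.14, 0.49, 0.06 and 0.52). Rbfa, which binds the small subunit during assembly, had a mean of -0.24. Of 17 translation factors 1 was at an unadjusted p under 0.05, against the same 6.16%. It was the initiation factor Mtif3, at 0.29 (ratios 0.15, 0.52, 0.03 and 0.46). The recycling factor Gfm2 was at -0.12.

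The cytosolic ribosomal proteins, which share no genes with the members, gave a median of -0.01 over 78 genes, with pair medians of 0.05, 0.003, 0.03 and -0.10. The 34 subunits of complex I, some of whose partner subunits the mitoribosome makes, had a median of 0.03 and pair medians of -0.09, 0.21, -0.05 and 0.04. In both lists 0 genes passed the adjusted p and 0 the unadjusted p of 0.05 in limma, against 0.0131% and 6.16% of all tested genes.

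The windows before the gene starts were searched for motifs that RefSeq promoter sequences (GRCm38.p6) could show. Of the 77 tested members 68 had such a sequence, and the 250 bases before the start were read on both strands. The NRF1 motif GCGCANGCG, bound by a regulator of genes for mitochondrial proteins, was in 13 of 68 (19.1%), against 9.84% of 12140 tested genes with a sequence. The ETS motif CCGGAAG was in 17 (25%) against 11.8%, and the YY1 motif AAGATGGCG in 2 (2.94%) against 1.01%. The C/EBP-ATF motif TGATGNAA was in 0 of 68 against 2.22%. The same search found no match in the 250 bases before Trib3 either. As only these letters were searched, a count of 0 does not show that sites of this kind are absent. An ETS match can run into a YY1 match through the shared letters AAG. Members with the NRF1 motif had a median ratio of -0.04 and those without one of 0.004, and for ETS these were -0.03 and -0.001. A match is a description of the letters and not of binding.

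The last 120 bases before the start are shown for the member with the highest mean, for Mrps22, which had the smallest spread, and for Mrpl12, to show windows with and without the motifs (capitals mark a motif).
Mrpl12, chr11:120484517-120484636, plus strand, with the NRF1 motif: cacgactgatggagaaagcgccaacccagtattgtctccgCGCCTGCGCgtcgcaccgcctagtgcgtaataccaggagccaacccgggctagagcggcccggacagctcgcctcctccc
Mrps22, chr9:98601680-98601799, minus strand, with the ETS motif: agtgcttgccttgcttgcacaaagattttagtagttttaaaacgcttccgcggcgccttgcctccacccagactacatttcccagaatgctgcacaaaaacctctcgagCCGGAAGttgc
Mrps31, chr8:22411220-22411339, plus strand, with none of the 4 motifs: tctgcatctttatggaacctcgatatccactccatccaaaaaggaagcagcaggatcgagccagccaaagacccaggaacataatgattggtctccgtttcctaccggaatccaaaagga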

How the data were processed

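Spots were quantified by Agilent Feature Extraction (version 10.7.3.1 per the submitters' processing notes). The deposited intensity values used were the median brightness of each spot and its local background. The scanner's log10 ratios of Cy5 over Cy3, per the file headers, and the log2 values of the table the authors deposited were alternatives. In that table the processed signals follow a quantile-normalised log2 scale with each probe's median removed, as a comparison with the scanner files showed.

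In limma 3.58.1 (R 4.3.3) the background was corrected with normexp (offset 50), ratios were normalised by loess within arrays with control spots at weight 0, outlier spots were left out, and spots of a probe were averaged. Signals per mouse were then put on a common scale (Aquantile). Of 55681 probes, 33315 were well above background in at least 3 of 4 samples of a genotype, and 8 of these lacked a value on some array and were left out. The ratios were fitted with genotype and dye terms (2 residual and 3.65 prior degrees of freedom), with Benjamini-Hochberg adjustment over all tested probes. The fit was tested on simulated data. With variances drawn from the fitted prior, the share of false calls was near the nominal one, and with variances like those observed it was above it, so the adjusted p-values of Pus1 and Trib3 may be too small. Symbols came from the probes' accessions through RefSeq: 27509 probes matched a symbol and 28172 did not.

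Same-numbered mice shared an array, so each ratio is a paired value. Their deviations from the group means correlated at 0.791, 0.314, 0.494 and 0.740 in pairs 1 to 4, and the highest correlation with a mouse of another number was 0.388, 0.690, 0.388 and 0.690, so in pair 2 the partner was not the closest. The labels call the mice biological replicates, and 4 arrays limit the precision. Genes were named by a rule: passing a test, the highest and lowest moderated t, the largest and smallest spread, the lowest p for sex and dye, disagreeing probes, an uncertain place in the ribosome, or a textbook role. Genes also named for another reason (same sign in every pair, chromosome 5) were chosen after their values were seen. Chchd1 and Dap3 were named outside the rule. Members, lists and motifs were chosen with earlier results of these data known. Of members with several promoter windows in RefSeq (3 genes) the first listed was read, and the NRF1 motif was searched in a form shortened by its last letter. The motif form, the choice of window and the comparison with tested genes were all changed after first values had been seen.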

Additional observations from a re-analysis of the deposited data

Results flagged for a closer look

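In 99 sets of 4 values (signals or ratios of the named genes and list medians), 7 held a value whose gap to the nearest other exceeded Dixon's critical share of the range, where chance gives about 1 in 20. In mutants, the mouse of pair 2 was highest for Mrpl47 (log2 signal 12.09, others 11.77 to 11.82) and for Mrpl34 (12.36, others 11.71 to 11.82), and lowest for Mrpl50 (11.97, others 12.26 to 12.31). In wild-type mice, pair 4 was lowest for Mrpl14 (13.56, others 13.82 to 13.87), pair 3 highest for Mrps12 (13.97, others 13.77 to 13.80) and pair 1 highest for Mrps36 (12.90, others 12.64 to 12.68). The log2 ratio of Mrpl3 in pair 2 was -0.6041, against 0.09 to 0.17 in the other pairs.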

How the results depend on the processing

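In each of the 16 alternative settings of the genotype test, 0 members passed the adjusted p. Of all genes 0% to 4.15% passed it. The highest share was without pair 4, where 635 of 15288 genes passed and 22.3% were at an unadjusted p under 0.05 in limma. At an unadjusted p under 0.05 there were 1 member without the filter on dim probes (Mrps31), 1 with the channels fitted separately and no replicate block (Mrps31), and 2 with the array as a random replicate block (Mrpl47 and Mrps31). Leaving out each pair in turn gave 0 to 3, the 3 being without pair 2. Of all genes 8.25%, 1.16%, 7.38% and 9.62% were called in these 4 settings, in this order. Pairing changed no other call. With median centring in place of loess, the median of all members moved to -0.0816 (all tested genes -0.04). In that setting 13 members passed the adjusted p for dye, where 0 did after loess. The share of all genes passing for dye with median centring is not given here, so the count cannot be called particular to the members. The cause was not tested. The large minus small difference between the medians of the mean ratios stayed below 0 except without pair 3 (0.008) and without pair 4 (0.02). The mean of the differences by pair was above 0 in the main setting (0.02). Of the 32 named and tested members, 19 kept the sign of their mean ratio in all 16 settings. For the ETS motif, reading the lowest-coordinate window in place of the first gave 18 members. All 99 tested member probes were above background in all 8 samples, and the number of pairs limits the precision; how signal strength bears on it was not tested. The dye and sex tests were repeated under 5 of the settings.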
